A study of Homo sapiens with 16 samples.

Results

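Immediate early genes are genes whose transcripts appear within minutes of a growth factor, stress or serum signal without new protein synthesis. The 10 described here were chosen by name: the zinc finger factor EGR1, the AP-1 subunits FOS, FOSB, FOSL1, FOSL2, JUN and JUNB, the related bZIP factor ATF3, the nuclear protein gene IER2 and the MAP kinase phosphatase DUSP1. All 10 were among the 57773 genes of the tables, and all 10 passed the filter that kept 16967 genes for testing. They were chosen with their values in these libraries in view, so their levels are given as a description and carry no test of their own.

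The libraries came from A549, a long-established human cell line grown from a lung adenocarcinoma. Its cells were given TGF-beta, which drives them from an epithelial toward a mesenchymal state, and were harvested at 0, 6, 12, 24, 36, 48, 72 and 96 h. Each time had 2 libraries, replicate 1 and replicate 2, which gives 16 libraries in 2 series of 8. The TGF-beta dose and the serum are not stated. No untreated culture was sampled at the later times, so the action of TGF-beta and time in culture cannot be told apart, and the 7 comparisons with 0 h share the same 2 libraries. A549 is a single tumour line, and nothing in the labels tells whether the replicates were separate cultures.

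Growth factor signals reach these genes through the ERK, JNK and p38 MAP kinases, which phosphorylate ternary complex factors bound with SRF at CArG boxes and CREB or ATF factors bound at cyclic AMP response elements. FOS and JUN proteins pair through leucine zippers to form AP-1, which binds TGACTCA or similar sites; JUN proteins also pair with each other, and FOS proteins do not. In cells treated with TGF-beta, AP-1 acts beside SMAD proteins at many matrix and protease genes, and JUNB is a known transcriptional target of the pathway. Many immediate early transcripts are short-lived, and phosphatases such as DUSP1 switch the kinases off again.

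The promoters of the 5 members that the description turns on are shown because their upstream stretches differ in the elements named above. Each stretch lies in the 150 bases before the RefSeq transcript start (GRCh38.p14). It was cut short where the gene model of GENCODE release 29 begins inside those bases. The stretches are read 5′ to 3′ on the gene's strand, with CArG boxes, TGACG on either strand and TATAAA in capitals. They lie at chr5:138465329-138465478 (plus strand, EGR1), chr14:75278678-75278773 (plus, FOS), chr19:45467846-45467994 (plus, FOSB), chr19:12791336-12791485 (plus, JUNB) and chr5:172771196-172771345 (minus, DUSP1). GENCODE begins FOS at 75278774, which is 54 bases before the RefSeq start, so the FOS stretch has 96 bases.
EGR1: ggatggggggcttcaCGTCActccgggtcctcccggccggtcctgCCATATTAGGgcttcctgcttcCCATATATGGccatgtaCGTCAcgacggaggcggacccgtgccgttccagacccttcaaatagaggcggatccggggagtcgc
FOS: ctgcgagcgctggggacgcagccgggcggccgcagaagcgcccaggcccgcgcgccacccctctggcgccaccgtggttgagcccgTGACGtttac
FOSB: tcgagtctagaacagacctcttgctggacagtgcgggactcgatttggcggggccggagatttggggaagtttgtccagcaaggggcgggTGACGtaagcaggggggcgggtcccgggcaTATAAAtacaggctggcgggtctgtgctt
JUNB: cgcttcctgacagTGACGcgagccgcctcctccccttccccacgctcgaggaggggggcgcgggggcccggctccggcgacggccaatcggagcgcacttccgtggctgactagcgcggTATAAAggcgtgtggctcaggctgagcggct
DUSP1: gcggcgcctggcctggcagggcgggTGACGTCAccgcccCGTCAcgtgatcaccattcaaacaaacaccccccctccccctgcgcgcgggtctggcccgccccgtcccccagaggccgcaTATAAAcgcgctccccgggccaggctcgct

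Motifs were searched on both strands of the RefSeq windows from 250 bases before to 50 bases after the start, in which 9 of the 10 members had an entry; FOSL1 was not in the table. Within these windows the CArG box stood in 1 of the 9 members, EGR1, in 2 copies that begin 105 and 83 bases upstream, and in 1.29% of all 35116 promoters. A CArG box more than 250 bases upstream, in FOS or another member, was outside the search. TGACG, the core of the cyclic AMP response element, stood in 8 of the 9, ATF3 being the exception, and in 24.6% of all promoters. The full palindrome TGACGTCA, which contains TGACG, was found in DUSP1, 125 bases upstream, and in 1.85% of promoters. The AP-1 site TGACTCA was found in FOSL2, 5 bases after the start, and in 4.95% of promoters. TATAAA stood about 30 bases upstream in DUSP1, FOSB, JUNB and FOS (at 30, 30, 31 and 33), and in ATF3 farther out; 11.5% of all promoters held it. That of FOS is within the 54 bases that GENCODE places inside the gene, and it is not in the stretch shown. The SMAD palindrome GTCTAGAC was in none of the 9 windows and in 0.202% of promoters, and CAGACA was in IER2 and in 16.9%. These matches describe letters and do not show that a factor is bound.

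The members are genes of few exons in GENCODE release 29 (GRCh38), which was matched to the tables by Ensembl identifier. All 10 had at most 4 exons in the transcript used, a feature of 20.3% of 12405 tested protein-coding genes, and JUN, JUNB and IER2 had a single exon (2.31% of genes). The nonamer TTATTTATT, an AU-rich element tied to rapid mRNA decay, was in the 3′ UTR of FOS, FOSL2 and DUSP1, so in 3 of 10 against 9.02% of genes. At least 3 copies of ATTTA stood in 6 of the 10, against 44.5% of genes.

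Before the levels, the libraries need a word. TPM keep no read totals, so depth is unknown, and genes listed at 0 numbered 29278 to 31187, apart from the replicate 2 libraries of 36 h (36116) and 48 h (36294). A set of 6 small RNAs took 42.5% to 64.1% of the TPM, a share that moves the scale for the members. The 13 mitochondrially encoded transcripts summed to 3631 to 12276 TPM, too little to set that scale. Both are given beside the members below. The cells carried the simple epithelial keratins (KRT18 at 2045 and 2734 TPM at 0 h), while the alveolar type 2 marker SFTPC was at most 0.25 TPM and the lung lineage factor NKX2-1 at most 0.03 TPM in any library. Markers of other cell types were low in summed level: at most 8.01 TPM for 8 fibroblast genes, 7.41 TPM for 6 endothelial genes, of which ESAM alone passed the filter, 14.9 TPM for 8 leukocyte genes and 0.5 TPM for 5 erythroid genes. In bulk RNA, fewer cells that express a gene and less RNA per cell cannot be told apart.

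EGR1, FOS and FOSB were present in 6 of the 8 libraries of replicate 1 and close to 0 in the others and throughout replicate 2, apart from a low level of FOS. EGR1 (chromosome 5, 138465490 to 138469315) encodes a zinc finger factor that links growth factor signals to later transcription. In time order from 0 to 96 h, it measured 8.99, 0.09, 23.9, 11.5, 42.6, 0.13, 18.6 and 20.0 TPM in replicate 1. In replicate 2 it measured 0.10, 0.14, 0.16, 0.10, 0.07, 0.00, 0.19 and 0.21 TPM. The 6 h and 48 h libraries of replicate 1 therefore lay inside the range of replicate 2, and the other 6 lay above all of it.

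FOS (chromosome 14, 75278774 to 75282230), the founding AP-1 subunit, followed the same outline in replicate 1. It measured 39.1, 0.68, 30.7, 29.5, 36.8, 0.57, 57.1 and 53.4 TPM in time order. Its values in replicate 2 were 1.94, 0.64, 0.54, 0.84, 2.27, 2.59, 3.18 and 7.45 TPM, lowest at 12 h and higher at each time after it. Its highest value of replicate 2, at 96 h, was still below the 6 high libraries of replicate 1.

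FOSB (chromosome 19, 45467995 to 45475179) encodes a further FOS protein whose splice form delta-FosB is long-lived. In replicate 1 it measured 5.60, 0.59, 22.2, 11.9, 16.4, 0.16, 18.0 and 15.2 TPM in time order. Replicate 2 held it at 0.07, 0.53, 0.44, 0.48, 0.40, 0.32, 0.21 and 0.12 TPM, so its lowest value there was at 0 h and its highest at 6 h. The low libraries of replicate 1 were again those of 6 and 48 h.

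Within replicate 1 these 3 genes had some of the widest steps of the 16967 genes on the log2(TPM + 1) scale, on which all differences below are given. From 0 to 6 h the differences were -4.58 for FOS, the lowest of all genes, -3.20 for EGR1, the 4th lowest, and -2.05 for FOSB, the 37th lowest. From 6 to 12 h they were 4.24, 4.51 and 3.86, among the 9 highest. From 36 to 48 h they were -4.59, -5.27 and -3.91, with EGR1 the lowest of all genes, and from 48 to 72 h they were 5.21, 4.12 and 4.03, the 3 highest of all genes. With TMM scaling, which sets the libraries to a common reference of most genes, the 12 differences kept their signs, at -4.21, -2.99 and -1.73, then 3.47, 3.89 and 3.11, then -4.15, -4.96 and -3.59, then 4.92, 3.97 and 3.87. These steps were between single libraries and have no replicate check.

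**Figure D1:**
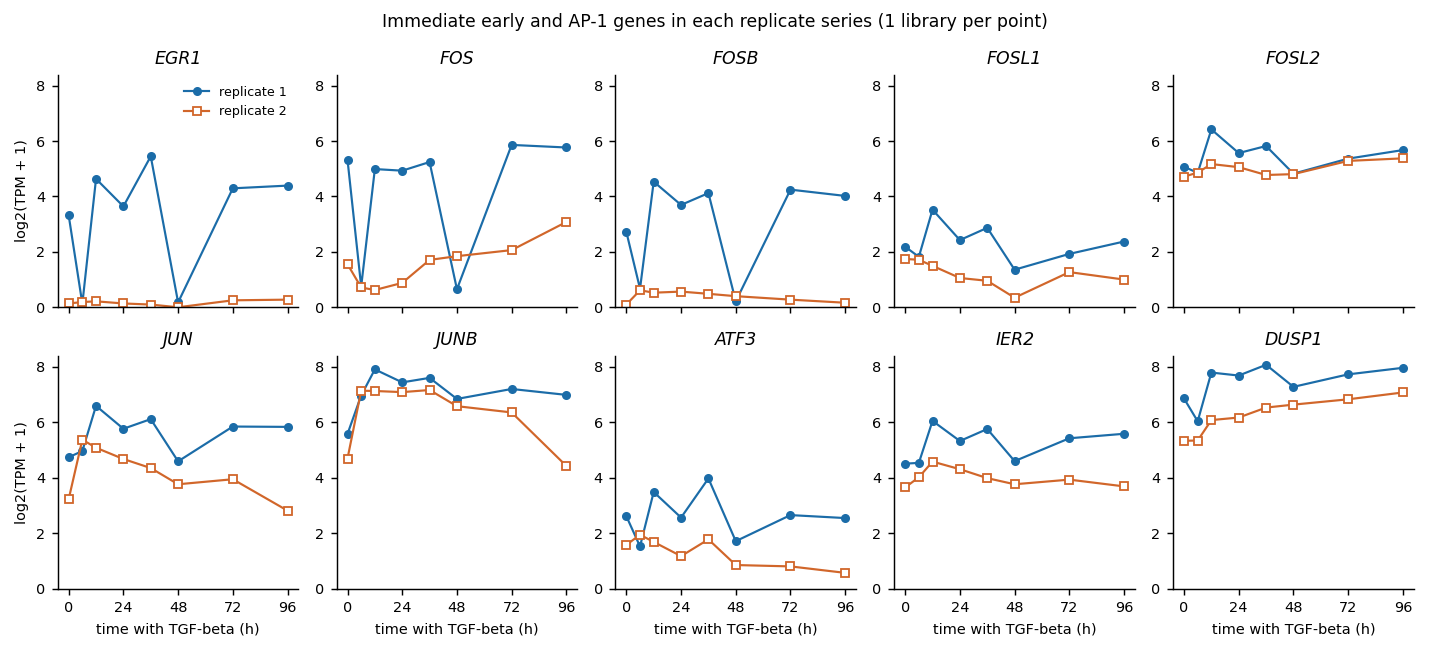
Level of each of the 10 genes as log2(TPM + 1) against hours with TGF-beta, with 1 library per point and a line for each replicate series (replicate 1 filled circles, replicate 2 open squares). EGR1, FOS and FOSB are near 0 at 6 and 48 h in replicate 1 and low in replicate 2, where FOS reaches 7.45 TPM at 96 h, while JUNB stands above its 0 h level from 6 to 72 h in both.

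Library-wide values moved with these steps. In replicate 1 the summed mitochondrial transcripts were 9095, 5058, 12276, 8242, 9085, 3631, 7127 and 9118 TPM in time order, lowest at 48 and 6 h. The small RNA share of replicate 1 was 60.5% at 6 h and 64.1% at 48 h, against 42.5% to 55.1% at its other times. In replicate 2 the mitochondrial sum was 8534 TPM at 0 h and 4406 to 5962 TPM afterwards, and the small RNA share ran from 51.8% to 62.1%. The 0 h library of replicate 2 thus had a mitochondrial sum within the range of the 6 high libraries of replicate 1 and EGR1 at 0.10 TPM. The part of these library-wide values in the levels of EGR1, FOS and FOSB was not tested.

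**Figure D2:**
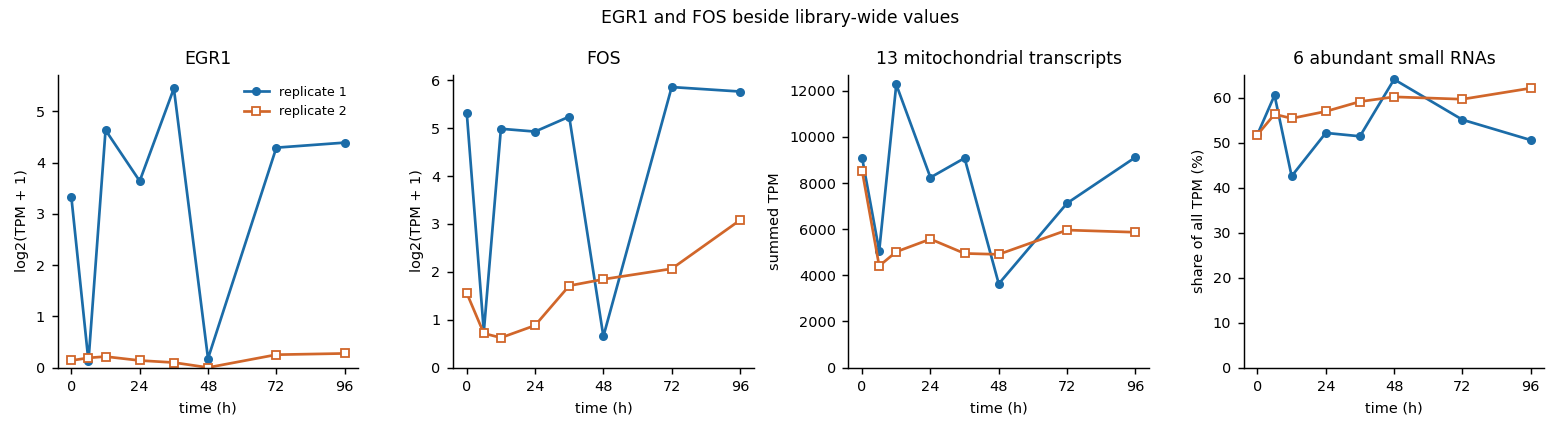
EGR1 and FOS as log2(TPM + 1), the summed TPM of the 13 mitochondrially encoded transcripts and the percent of all TPM taken by 6 small RNAs, each against hours with TGF-beta, with 1 library per point (replicate 1 filled circles, replicate 2 open squares). In replicate 1 the 6 and 48 h libraries are low for EGR1, FOS and the mitochondrial sum and high for the small RNA share.

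FOSL1 and FOSL2 encode the FOS-related proteins Fra-1 and Fra-2, which lack the strong activation domain of FOS. FOSL1 (chromosome 11, 65892049 to 65900573) measured 3.55, 2.53, 10.5, 4.37, 6.30, 1.56, 2.80 and 4.18 TPM in replicate 1. In replicate 2 it measured 2.35, 2.28, 1.82, 1.08, 0.94, 0.27, 1.41 and 1.0 TPM. It peaked at 12 h in replicate 1 and was highest at 0 h in replicate 2, and both series were lowest at 48 h.

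FOSL2 (chromosome 2, 28392448 to 28417312) measured 32.7, 27.8, 84.6, 46.4, 55.5, 27.3, 40.2 and 50.04 TPM in replicate 1. In the second series the values were 25.3, 28.0, 35.0, 32.3, 26.4, 27.0, 37.9 and 40.5 TPM. It was the member with the closest levels in the 2 series, which were within 1 TPM of each other at 6 and 48 h. No library of FOSL2 was near 0.

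FOSL2 was the main FOS family transcript wherever FOS was low. As a share of the summed TPM of FOS, FOSB, FOSL1 and FOSL2, it took 82.5% to 93.1% in replicate 2. In replicate 1 it took 88.0% at 6 h and 92.3% at 48 h, and 34.1% to 57.2% at the other times. The share of FOS itself ran from 1.93% to 48.4% in replicate 1, with a median of 32.0%, and from 1.43% to 15.2% in replicate 2, with a median of 6.99%. Shares are on the TPM scale, which corrects for transcript length.

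**Figure D3:**
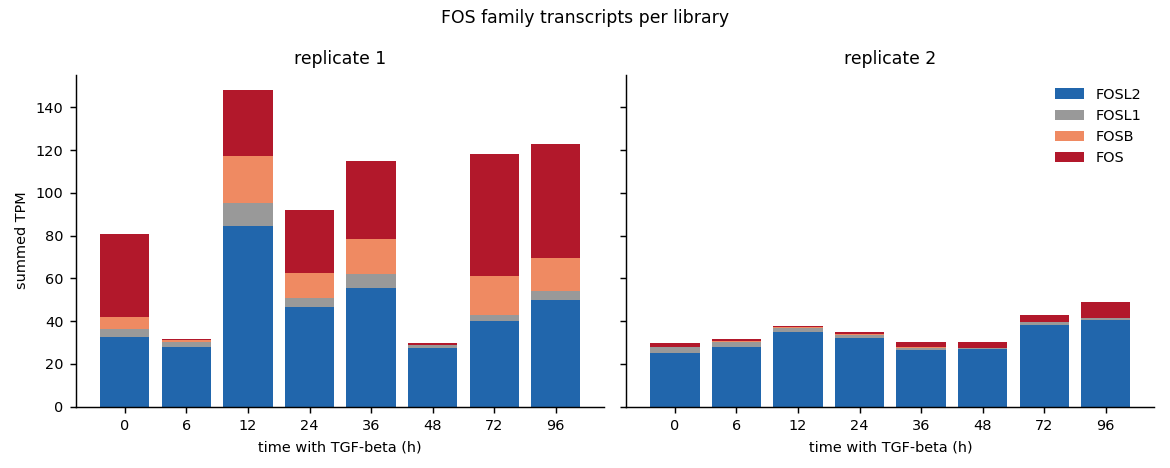
Stacked bars of the TPM of FOSL2, FOSL1, FOSB and FOS in each library, by hours with TGF-beta, with replicate 1 at left and replicate 2 at right. The 6 and 48 h libraries of replicate 1 have the height and the FOSL2 majority of replicate 2, where FOSL2 takes 82.5% to 93.1%.

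The JUN genes followed another course, with levels above 0 h early in both series. JUN (chromosome 1, 58780788 to 58784327), the main transactivating partner of FOS, measured 25.7, 30.2, 95.6, 53.4, 68.3, 23.1, 56.5 and 56.1 TPM in replicate 1. Replicate 2 had 8.35, 40.4, 32.9, 24.6, 19.4, 12.6, 14.4 and 6.02 TPM. Replicate 2 was highest at 6 h, while replicate 1 was highest at 12 h and ended above its start. Both libraries of 6 h and of 12 h lay above both of 0 h.

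JUNB (chromosome 19, 12791496 to 12793315), a JUN protein that often restrains JUN activity, measured 46.8, 124, 239, 173, 193, 114, 146 and 126 TPM in replicate 1. In replicate 2 it measured 24.8, 140.1, 139, 135, 143, 94.8, 80.9 and 20.5 TPM. At every time from 6 to 72 h both libraries were above both libraries of 0 h. The 6 and 48 h libraries of replicate 1, in which FOS was near 0, held JUNB at more than its 0 h level. At 96 h the series parted, with replicate 1 above its 0 h library and replicate 2 a little below it (difference -0.27, and 0.35 with TMM scaling).

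The make-up of the JUN family changed as well. JUNB took 45.0% of the summed TPM of JUN, JUNB and JUND at 0 h in replicate 1 and 63.6% to 76.9% afterwards. In replicate 2 it took 38.6% at 0 h, 70.5% to 80.2% from 6 to 72 h and 48.3% at 96 h. JUND, the constitutive JUN protein, was at 31.4 and 31.1 TPM at 0 h and held its largest shares of replicate 1 at that time (30.3%), and in replicate 2 its share ran from 8.60% to 48.4%.

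ATF3 (chromosome 1, 212565334 to 212620777), a stress-induced bZIP repressor, was low. It measured 5.11, 1.87, 10.2, 4.90, 14.7, 2.27, 5.28 and 4.83 TPM in replicate 1, highest at 36 h. Its values in replicate 2 were 1.98, 2.84, 2.21, 1.25, 2.42, 0.80, 0.74 and 0.48 TPM, with its lowest values at the last 3 times.

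IER2 (chromosome 19, 13150415 to 13154908), a nuclear protein induced by serum, measured 21.7, 22.2, 65.3, 39.1, 53.1, 23.2, 41.9 and 47.0 TPM in replicate 1. Replicate 2 held it at 11.6, 15.2, 22.9, 18.8, 14.8, 12.6, 14.2 and 11.9 TPM. Both series were highest at 12 h, and both 12 h libraries were above both of 0 h.

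DUSP1 (chromosome 5, 172768090 to 172771195) encodes MKP-1, the nuclear phosphatase that inactivates p38, JNK and ERK. In replicate 1 it measured 115, 64.7, 221, 205, 269, 154, 211 and 249 TPM, lowest at 6 h. In replicate 2 it measured 39.3, 39.6, 66.7, 71.1, 91.5, 98.6, 113 and 134 TPM, higher at each time than at the one before. At 96 h both libraries were above both of 0 h, and the differences within replicates 1 and 2 were 1.11 and 1.74 (1.0 and 2.37 with TMM scaling).

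Against 0 h, 0 of the 10 members were called at any time by limma without a replicate term (adjusted p below 0.05). Of all genes, 0%, 0.253%, 0.613%, 0.967%, 0.796%, 0.831% and 0.536% were called higher from 6 to 96 h, and 0.0177%, 0.13%, 0.595%, 1.33%, 6.8%, 1.74% and 1.26% lower. Over the whole course 0 members were called, against 1.72% of genes called. At an unadjusted p below 0.05 the members numbered 1, 2, 1, 1, 1, 1 and 0 from 6 to 96 h, and 1 over the whole course. Counts at an unadjusted p have no share of all genes at that threshold beside them, here or for the lists below. With the replicate number as a block, JUNB was called higher at 12, 24, 36, 48 and 72 h and DUSP1 at 36, 48, 72 and 96 h, while 1.92%, 1.87%, 2.48%, 1.7%, 2.08% and 1.5% of all genes were called higher from 12 to 96 h. Both were also called over the whole course with the block, as were 6.13% of all genes. Since the members were picked with these contrasts in view, nothing is read from these counts.

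Medians of the 10 members stood beside those of all genes as follows. From 6 to 96 h the members' medians were -0.28, 0.87, 0.57, 0.84, -0.45, 0.57 and 0.59. Those of all genes were -0.37, 0.03, -0.15, -0.16, -0.46, -0.16 and -0.20. With TMM scaling the medians of all genes lay between -0.05 and 0.00 and those of the members were 0.12, 0.81, 0.65, 0.90, 0.00, 0.73 and 0.72, so the sign at 6 h turned and the value at 48 h became 0.

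The members whose 2 libraries both lay above both libraries of 0 h were few. They were JUN and JUNB at 6 h (5.66% of all genes), FOSL2, JUN, JUNB and IER2 at 12 h (15.2%), JUNB alone at 24, 36 and 48 h (15.2%, 15.3% and 6.61%), FOSL2 and JUNB at 72 h (13.8%), and FOSL2 and DUSP1 at 96 h (7.6%). EGR1, FOS, FOSB, FOSL1 and ATF3 were not among them at any time, and both libraries lay below both of 0 h for FOS at 6 h (61.8% of all genes) and FOSL1 at 48 h (62.3%).

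Members that differed by at least 1 from their own 0 h library were counted within each series, beside the share of all genes. In replicate 1, 1 member was higher and 4 lower at 6 h, against 0.796% and 9.79% of genes, and 7 were higher and 0 lower at 12 h (12.8% and 1.29%). At 24 h 2 were higher and 0 lower (4.04% and 2.45%), at 36 h 7 and 0 (5.35% and 2.82%), and at 48 h 1 and 3 (2.12% and 18.5%). At 72 h 3 were higher and 0 lower (4.81% and 6.6%), and at 96 h 6 and 0 (6.29% and 4.05%). In replicate 2, 2 members, JUN and JUNB, were higher and 0 lower at 6 h (1.4% and 6.13%). From 12 to 72 h 2, 2, 3, 2 and 2 members were higher (2.59%, 3.67%, 4.23%, 3.24% and 3.07% of genes) and 0, 0, 0, 1 and 0 lower (4.7%, 6.89%, 11.5%, 12.7% and 6.37%). At 96 h 2 were higher, FOS and DUSP1, and 1 lower, ATF3 (1.58% and 16.1%). With TMM scaling the counts of replicate 1 from 6 to 96 h were 1, 4, 2, 7, 2, 5 and 3 higher and 3, 0, 0, 0, 3, 0 and 0 lower. Those of replicate 2 were then 2, 4, 3, 3, 2, 3 and 3 higher and 0, 0, 0, 0, 1, 0 and 0 lower. The shares of all genes with TMM scaling were not computed, so nothing is read from the counts with it.

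The members stood higher in replicate 1 than in replicate 2 at nearly every time. FOSL1, IER2 and DUSP1 did so at 8 of 8 times, as did 5.23% of all genes. The other 7 did so at 7 of 8 times, the exception being 6 h for EGR1, FOSL2, JUN, JUNB and ATF3 and 48 h for FOS and FOSB; 16.6% of all genes reached 7 or 8 times. In the additive limma fit of replicate 2 against 1, 8 of the 10 were called lower, all but JUNB and FOSL2, against 8.32% of all genes. Without the filter 6 were called lower, FOS and JUN no longer among them, against 374 of 37826 genes. The median difference was -1.29 for the members and -0.14 for all genes (-1.14 and 0.00 with TMM scaling, under which 9 members and 10.4% of all genes were called lower). The differences ran from -3.09 for EGR1, -2.64 for FOSB and -2.63 for FOS to -0.44 for FOSL2. EGR1 and FOSB passed the filter only through replicate 1, as in replicate 2 they were at most 0.21 and 0.53 TPM. Nothing is therefore read from their calls. The contrast of replicate 2 with replicate 1 too was in view when the members were chosen.

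The same contrast touched genes outside the list. All gene lists were chosen with earlier results of these data known, so no enrichment is read from their counts here or below. Of 27 measured immediate early genes that are not members, 13 were called lower in replicate 2 by limma, among all genes 8.32%, with a list median of -0.57. With TMM scaling 15 were called lower, and without the filter 4 of 30, which were KLF2, MYC, CYR61 and MCL1. KLF2 passed the filter only through replicate 1, being at most 0.95 TPM in replicate 2. Of the 13 mitochondrial transcripts 9 were called lower, and 3 without the filter. A culture, extraction or sequencing difference between the series cannot be told apart from the replicate number, and what a replicate number stands for is not stated.

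Among the members, courses over the 8 times were alike in different ways in the 2 series. Pearson's r of log2(TPM + 1) between EGR1 and FOS was 0.94 in replicate 1 and 0.21 in replicate 2, and between FOS and FOSB 0.94 and -0.74. JUN and JUNB had 0.79 and 0.89, and JUN and IER2 0.98 and 0.79. FOS and DUSP1 had 0.69 and 0.72, and FOS and JUN 0.65 and -0.88. The points of a series share its scaling, and EGR1 and FOSB had almost no range in replicate 2, so these values are descriptions over 8 libraries.

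Likeness to other genes was taken as the smaller of the 2 series' correlations, over the 9383 genes whose mean reached 5 TPM. ARHGEF18 (0.959) and CSRNP1 (0.951) were most like JUNB, and CYTH1 (0.959) and CTPS1 (0.930) most like JUN. For DUSP1 they were GNG4 (0.941) and IL15 (0.941), for IER2 PIK3CD (0.924) and TAX1BP3 (0.915), and for FOSL2 ATP13A2 (0.855) and UQCR11 (0.828). For FOS they were HYAL2 (0.932) and SOCS5 (0.905), for FOSB NCOA4 (0.908) and LRIF1 (0.882), and for EGR1 CDK9 (0.902) and ATXN7L3 (0.866). FOSL1 and ATF3 had means under 5 TPM and were left out. In replicate 2, EGR1 was at most 0.21 TPM and FOSB at most 0.53 TPM, so their correlations there rest on values near 0. These genes are the top picks from 9383 over 8 times, and whether their likeness exceeds chance was not tested.

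Of the other immediate early genes, 1 of the 27 past the filter, out of 30 listed, rose against 0 h from 12 to 96 h and 0 fell. IER3, a stress-induced survival gene, measured 56.4, 146, 209, 193, 229, 171, 181 and 196 TPM in replicate 1. In the second series the values were 57.1, 162, 210.0, 219, 259.6, 191, 162 and 98.8 TPM. The libraries of each later time were above both of 0 h, and limma put the log2 fold change of 36 h at 2.08 with an SE of 0.26 (adjusted p = 0.00286). The list median at 36 h was 0.63, against -0.16 for all genes. Leaving out the 0 h library of replicate 2 removed the call of IER3.

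With the replicate block, GADD45B, CTGF, ZFP36 and CSRNP1 also rose at 12, 24 and 36 h, a set named after its values were seen. GADD45B, a stress sensor that activates p38, measured 16.8 and 9.29 TPM at 0 h, and CSRNP1, a nuclear protein, 9.10 and 5.44 TPM. At 12 h GADD45B measured 98.7 and 59.5 TPM and CSRNP1 33.5 and 16.8 TPM. CTGF, a matricellular growth factor gene, went from 28.1 and 6.86 TPM to 239 and 68.3 TPM, and ZFP36, whose protein destabilises AU-rich mRNAs, from 6.52 and 5.61 to 39.4 and 17.1 TPM. In the 6 h library of replicate 1, where FOS was near 0, GADD45B stood at 47.1 TPM and IER3 at 146 TPM. NR4A1 and PPP1R15A, picked from the list as examples, were lower there than at 0 h. In replicate 1, NR4A1 measured 6.57 TPM at 0 h, 2.44 TPM at 6 h and 2.44 TPM at 48 h. PPP1R15A measured 28.7, 5.93 and 10.4 TPM at the same times. Both were lower than at 0 h in replicate 2 too, with NR4A1 at 5.22, 2.14 and 3.46 TPM and PPP1R15A at 12.9, 9.03 and 5.71 TPM.

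**Figure D4:**
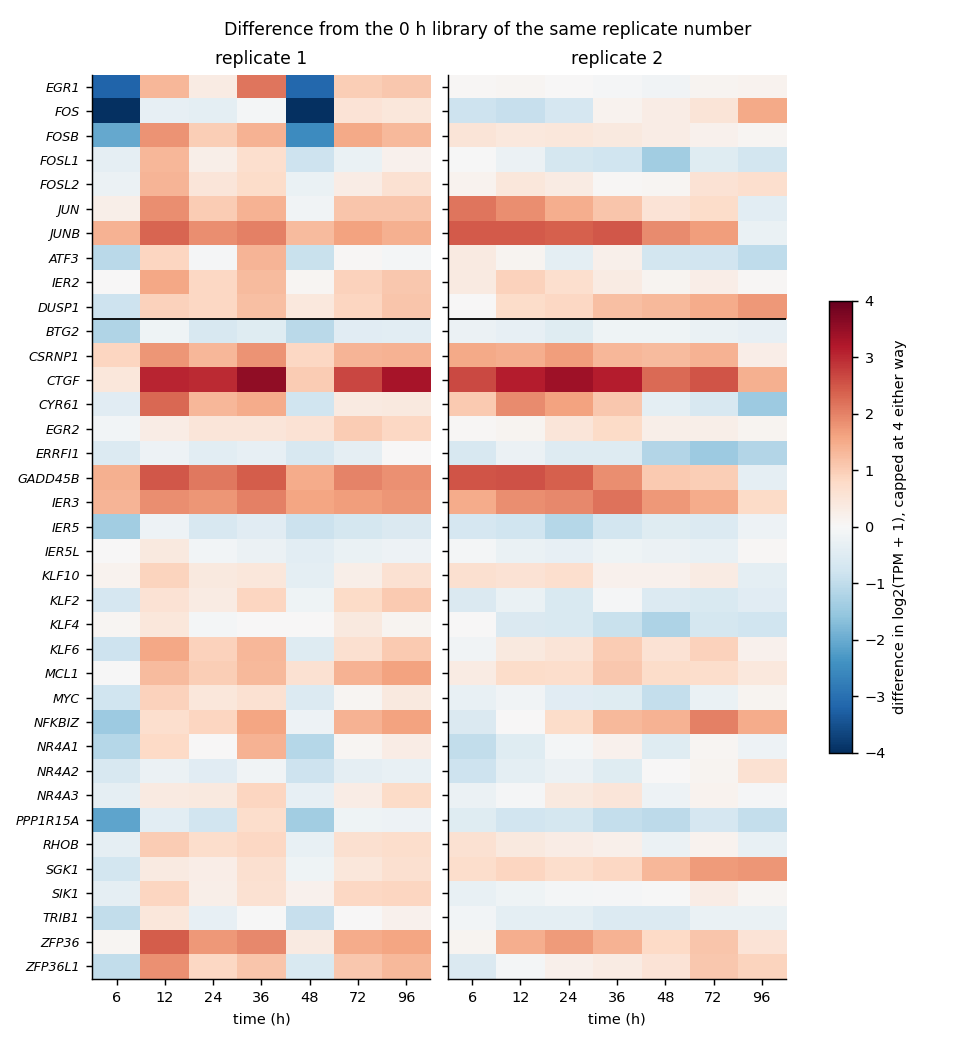
Difference in log2(TPM + 1) from the 0 h library of the same replicate number, for the 10 members (above the line) and 27 other immediate early genes, by hours and replicate series, with the colour scale capped at 4 either way. JUNB, IER3, CTGF and GADD45B are red at most times in both series, and the deep blue cells of FOS and EGR1 are the 6 and 48 h libraries of replicate 1.

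The MAP kinase phosphatases and ERK feedback genes held 15 past the filter of 16, of which 2, DUSP4 and DUSP5, fell at 1 or more times and 0 rose. Called lower were 1, 1 and 2 at 24, 36 and 48 h, against 0.595%, 1.33% and 6.8% of all genes. The split moved with the fit: with TMM scaling DUSP4 and DUSP5 were called lower and SPRY4, DUSP10, PHLDA1 and DUSP6 higher. With the block SPRY4, DUSP10 and PHLDA1 were called higher and DUSP4, DUSP5, SPRY1 and DUSP16 lower. DUSP4, a nuclear ERK phosphatase, measured 48.2, 15.8, 24.1, 14.6, 20.2, 23.0, 33.4 and 37.3 TPM in replicate 1 and 54.4, 14.1, 12.99, 12.96, 12.0, 22.8, 32.4 and 44.3 TPM in replicate 2. It fell at 24, 36 and 48 h, and the limma estimate for 24 h was -1.82 with an SE of 0.29 (adjusted p = 0.0124). Its call at 48 h was lost with TMM scaling, without the small RNAs and without the filter. DUSP5, also a nuclear ERK phosphatase, fell at 48 h from 18.8 and 19.7 TPM to 5.40 and 5.56 TPM, a limma estimate of -1.64 with an SE of 0.45 (adjusted p = 0.0440, and 0.0654 with TMM scaling). The list median at 24 h was -0.05 and that of all genes -0.15. Both calls were lost without either 0 h library.

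Of 23 upstream kinases and promoter-binding regulators, all past the filter, 0 were called against 0 h at any time by limma, while 6 had an unadjusted p below 0.05 at 1 or more times, and the list median at 12 h was 0.19, against 0.03 for all genes. SRF, the factor that binds CArG boxes, measured 8.09 and 5.62 TPM before treatment and 21.8 and 14.7 TPM by 12 h, and it was called higher there with the replicate block. Of 9 other AP-1 and related bZIP genes past the filter (12 listed), 0 were called by limma and 4 had an unadjusted p below 0.05 at 1 or more times. With the block MAF, a large Maf factor, was called higher at 36 to 96 h, and JUND and MAFG lower at 48 h. With the block and TMM scaling neither JUND nor MAFG was called.

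Known AP-1 target genes held 15 past the filter of 17 in the tables, and 5 of them rose at 1 or more times, among them PLAUR, IL11, MMP10 and MMP1. Counts were 4 of 15 at 24, 36, 48 and 72 h and 3 at 96 h, against 0.613%, 0.967%, 0.796%, 0.831% and 0.536% of all genes, and 0 were called lower at any time. At 6 and 12 h limma called 0, and 4 and 8 had an unadjusted p below 0.05. The list was chosen with earlier results of these data known, so no enrichment is read from these counts. The cytokine gene IL11, of the IL-6 family, measured 25.9, 116, 315, 291, 375, 318, 327 and 326 TPM in replicate 1 and 10.9, 87.1, 123, 196, 235, 144, 142 and 71.4 TPM in replicate 2. The limma estimate for 36 h was 4.06 with an SE of 0.70 (adjusted p = 0.0109).

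MMP1, an interstitial collagenase, was listed at 0 and 0.03 TPM at 0 h and measured 3.82 and 7.84 TPM at 72 h, by a limma estimate of 2.69 with an SE of 0.50 (adjusted p = 0.0138). With the block the counts of target genes were 1, 5, 6, 9, 8, 7 and 4 from 6 to 96 h. Without the 0 h library of replicate 2 none of the targets was called, and without that of replicate 1 there were 3. In the 6 h library of replicate 1, IL11 stood at 116 TPM beside FOS at 0.68 TPM.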

How the data were processed

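RNA-seq of A549 cells gave 16 libraries, 2 at each of 8 times. The authors deposited gene abundances as TPM, in a table per replicate number. Per the submitters' processing notes the tools were Bowtie and RSEM, with no versions; the build and annotation were not given in the sources used here. Because TPM are shares within a library, a change in abundant small RNAs moves every other gene, and depth and counting intervals cannot be given.

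Tables were joined by Ensembl identifier. Values were taken as log2(TPM + 1), which understates the change of low genes. Genes that reached 1 TPM in 2 or more libraries entered limma 3.58.1, run in R 4.3.3 (1 mean per time, empirical Bayes with a mean trend, two-sided, Benjamini-Hochberg over all 16967 genes, called at an adjusted p below 0.05). The code was tested on simulated data. The labels name no separate cultures, so the p-values reflect the spread among these samples alone, possibly a technical one. Of all value columns in the tables, 0 were left unused, and 0 pairs of libraries were identical.

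Same-numbered libraries departed from their time means in the same direction: their deviations correlated above 0.1 in 28 of 28 pairs of times (lowest 0.128, median 0.438; 27 of 28 with TMM scaling, lowest 0.0821). The main fit against 0 h nevertheless had no replicate term, so its SEs, p-values and counts leave this pairing out. The fit with a replicate block, which takes it in, stands beside results whose call it changes.

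The members and all gene lists were chosen with earlier results of these data known. Named genes were the 10 members, up to 3 called in each direction per list whose higher group averaged 5 TPM or more, and the 2 genes most like each member with a mean of at least 5 TPM. Alternatives were TMM scaling, leaving out the 6 small RNAs (3 RN7SL genes, RN7SK, RMRP, RPPH1), a pseudocount of 0.1 TPM, no filter, a replicate block with and without TMM, and leaving out each library; 2 pairs of libraries were also left out, chosen after seeing the data. Promoters are from RefSeq (GRCh38.p14), gene models from GENCODE release 29. One gene of the AP-1 target list is not reported here by name.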

Additional observations from a re-analysis of the deposited data

How the results depend on the processing

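Against 0 h, the count of members called higher was 0 at each time and over the whole course. The replicate block made it 1, 1, 2, 2, 2 and 1 from 12 to 96 h and 2 over the whole course (shares of all genes above). The block with TMM scaling made it 1, 3, 3, 3, 2, 3 and 3 from 6 to 96 h and 3 over the course. Under that setting 264, 600, 791, 921, 929, 840 and 694 of 16967 genes were called higher from 6 to 96 h. Over the course it called 1952. TMM scaling alone gave 1 at 24, 36 and 48 h, against 337, 431 and 415 of 16967 genes. Without the small RNAs it was 1 at 36 h, against 340 of 21216 genes. Leaving out single libraries gave 0 to 1 at 12, 24, 36, 48 and 72 h and over the course, with 1 without either 96 h library. No member was called lower against 0 h under any setting run.

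Related lists, counted as genes called higher at 1 or more times, moved as follows. Other immediate early genes, 1 as reported, were 5 with TMM scaling, 3 without small RNAs, 7 with the block and 13 with both, and 0 to 2 without single libraries (0 without 0 h replicate 2; 2 without either 12 h or either 96 h library). AP-1 targets, 5 as reported, were 8 with TMM scaling or without small RNAs, 9 with the block, 10 with both, and 0 to 8 without single libraries (0 without 0 h replicate 2, 3 without 0 h replicate 1, 8 without either 96 h library). Phosphatases and feedback genes, 0 as reported, were 4, 2, 3 and 8 under the same 4 settings and 0 to 2 without single libraries. Upstream regulators, 0 as reported, were 1, 1, 2 and 6. Other AP-1 and bZIP genes, 0 as reported, were 1, 1, 1 and 2, 1 with a pseudocount of 0.1 TPM, and 0 to 2 without single libraries.

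For genes called lower, phosphatases and feedback genes, 2 as reported, were 4 with the block, 1 without the filter and 0 to 2 without single libraries: 0 without either 0 h library and 1 without either 6, 24, 48 or 72 h library. They were 1 without 6 h replicate 1 and 48 h replicate 1 together, an alternative added after seeing the data. Other AP-1 and bZIP genes, 0 as reported, were 2 with the block, 0 with the block and TMM scaling, and 0 to 1 without single libraries; upstream regulators were 1 and 0 to 1, and other immediate early genes 0 to 1 without single libraries. With the replicate block DUSP4 was also called lower at 6 and 12 h and DUSP5 at 24 and 72 h. The cause of these shifts was not tested. Unknown depth limits how firmly levels under 1 TPM, such as EGR1 in replicate 2, can be ordered.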

Other observations

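Heat shock genes, which respond to protein stress rather than growth factors, divided. HSPB1, a small heat shock protein gene, rose at 12, 24, 36 and 48 h. It went from 150.2 and 108 TPM before treatment to 607 and 644 TPM by 12 h, a limma estimate of 2.29 on the log2 scale with an SE of 0.30 (adjusted p = 0.0110). At 48 h 4 of the 11 measured heat shock genes fell and 1 rose, against 6.8% and 0.796% of all genes. At that time HSP90AA1 alone was called with TMM scaling and HSPE1 alone without the filter, so the 48 h call of HSPB1 was lost in both. HSP90AA1, the inducible cytosolic chaperone, fell from 442 and 327 TPM to 90.5 and 113 TPM, a limma estimate of -1.90 with an SE of 0.43 (adjusted p = 0.0251). HSPD1, the mitochondrial chaperonin, fell with a log2 fold change of -0.98, which was not called with TMM scaling (adjusted p = 0.0294 and 0.259 by limma). HSPA1B, whose near-identical copy HSPA1A can share reads, fell by 1.45 on the log2 scale (adjusted p = 0.0411 by limma, and 0.320 with TMM scaling).

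Of 7 airway and simple epithelial markers past the filter, CDH1, KRT8, KRT18 and KRT19 were called lower at 48, 72 and 96 h. With TMM scaling CDH1 and KRT19 were called lower at 36 and 72 h, and none at 48 or 96 h. KRT7 was not called: from 1157 and 1078 TPM before treatment it measured 2630 and 2127 TPM by 12 h. KRT19, a keratin of simple epithelia, went from 50.4 and 49.9 TPM before treatment to 4.30 and 4.76 TPM by 72 h, a limma estimate of -3.21 with an SE of 0.53 (adjusted p = 0.00760). ESAM, an endothelial junction gene, rose at 12, 24 and 36 h, from 0.55 and 0.37 TPM at 0 h to 6.32 and 7.21 TPM at 36 h, a limma estimate of 2.41 with an SE of 0.37 (adjusted p = 0.00706).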
